A study of Mus musculus with 2 samples.

Results

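The Notch genes described here are 4 receptors (Notch1, Notch2, Notch3 and Notch4), 4 ligands (Dll1, Dll4, Jag1 and Jag2) and 2 target genes (Hey1 and Heyl). They were chosen by gene symbol, with earlier results of these data known. All 10 were found among the 22740 genes of the deposited expression table. RNA had been sequenced from the whole uterus of 2 independent C57BL/6 mice, titled WT, on day 4 of pregnancy, with 1 library per animal. There is a single group with no treatment or mutant, so the data give the level of each gene and how far 2 animals differed. Uterus 1 is the library titled WT1 and uterus 2 the library titled WT2. Values are the authors' RPKM, reads scaled to transcript length and library size, so levels of different genes can be set side by side.

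Notch signalling passes between touching cells. A ligand of the Delta-like (Dll) or Jagged (Jag) type binds a Notch receptor on the neighbouring cell, proteases then cut the receptor, and its intracellular part enters the nucleus, where it joins the DNA-binding protein RBPJ and switches on genes such as the Hes and Hey repressors. In blood vessels, Notch4 and Dll4 are best known from endothelium, and Notch3 from the mural cells around it (smooth muscle and pericytes). Around day 4 the uterine lining of the mouse turns receptive to implantation.

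The promoter table from RefSeq (build GRCm38.p6) held 8 of the 10 genes, all but Hey1 and Heyl, and it gave Dll1 a pair of start sites, so 9 windows were read. In the 250 bases before each start, 3 motifs were searched on both strands, with overlapping matches of a motif counted separately. GGGCGG is the core of a GC box, TGGGAA is the core of the RBPJ site, and CACGTG is an E box. CACGTG was in none of the 9 windows, against 6.02% of all windows. No match of GGGCGG overlapped a match of TGGGAA in the windows printed here. GGGCGG occurred in 5 of the 9 windows, against 32.7% of all 32851 windows of this length. Notch1, Notch2 and Jag2 had 5 matches each, Notch3 had 4 and Dll4 had 2. Notch4, Jag1 and both Dll1 windows had none. The 9 windows had a median GC content of 65.6%, against 52.4% for all windows. Of all windows, 4.09% held at least 4 matches. The windows of 3 receptors are shown because these genes span the range of receptor levels given next. Capitals mark GGGCGG or its reverse complement, and each line runs 5′ to 3′ on the strand of the gene.
Notch2 (chr3:98013288-98013537, plus strand): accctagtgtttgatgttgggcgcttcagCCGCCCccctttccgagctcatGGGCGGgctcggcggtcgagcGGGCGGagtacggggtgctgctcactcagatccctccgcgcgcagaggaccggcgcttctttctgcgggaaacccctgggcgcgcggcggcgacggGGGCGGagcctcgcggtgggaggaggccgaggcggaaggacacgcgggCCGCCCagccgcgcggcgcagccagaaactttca
Notch3 (chr17:32166891-32167140, minus strand): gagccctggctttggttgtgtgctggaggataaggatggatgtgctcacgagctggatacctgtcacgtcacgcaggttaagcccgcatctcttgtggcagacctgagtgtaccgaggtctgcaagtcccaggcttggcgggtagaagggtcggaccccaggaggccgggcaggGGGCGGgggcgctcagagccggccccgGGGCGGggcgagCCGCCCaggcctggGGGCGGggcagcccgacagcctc
Notch4 (chr17:34564045-34564294, plus strand): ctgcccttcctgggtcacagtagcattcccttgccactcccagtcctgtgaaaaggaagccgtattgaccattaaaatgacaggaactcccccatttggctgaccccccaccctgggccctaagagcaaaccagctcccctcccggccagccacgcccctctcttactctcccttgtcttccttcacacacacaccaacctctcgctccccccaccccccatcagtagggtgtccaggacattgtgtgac
The 3 receptors with at least 4 matches were also the 3 highest receptors, whereas Jag1, the highest ligand, had none. Jag2, with 5 matches, lay below Jag1. The GC content of the window was 72.0% for Notch2, 68.8% for Notch3, 66.0% for Notch1 and 58.4% for Notch4. A link between matches and level was not tested. A match in the 250 bases before a start describes the sequence and is no sign of a bound site.

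TGGGAA was in none of the 9 windows, against 21.6% of all windows. Of 8 further Notch target genes on a list of pathway genes, 5 had an entry. The windows of Hes5 and Hey2 are shown as those of a pair of target genes that hold TGGGAA (capitals, or its reverse complement) and had unlike levels.
Hes5 (chr4:154960673-154960922, plus strand): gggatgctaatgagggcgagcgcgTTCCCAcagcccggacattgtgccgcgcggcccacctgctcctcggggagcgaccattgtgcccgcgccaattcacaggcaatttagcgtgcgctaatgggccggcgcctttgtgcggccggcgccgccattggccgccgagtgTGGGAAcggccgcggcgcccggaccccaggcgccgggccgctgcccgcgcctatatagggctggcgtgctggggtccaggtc
Hey2 (chr10:30842784-30843033, minus strand): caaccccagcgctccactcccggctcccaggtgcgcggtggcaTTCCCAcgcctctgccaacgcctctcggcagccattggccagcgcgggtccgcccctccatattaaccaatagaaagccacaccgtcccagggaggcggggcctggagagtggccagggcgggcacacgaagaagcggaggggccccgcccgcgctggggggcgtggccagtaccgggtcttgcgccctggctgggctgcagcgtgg
Hes5 held 2 matches and was listed at 0 RPKM in both uteri. Hey2 held 1 match, with values of 3.50 and 3.99 RPKM in uterus 1 and uterus 2. Hes7 also held 1 match and was listed at 0 in uterus 1 and at 0.487 RPKM in uterus 2. Nrarp and both start sites of Hes6 held none.

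Notch2, Notch3 and Notch1 were each expressed above 13 RPKM in both uteri, and Notch4 lay several-fold below them. Notch2 (NM_010928, chromosome 3, 97817461 to 97954290 on mm9, plus strand) was the highest of the 10 genes. It measured 24.7 RPKM in uterus 1 and 22.8 RPKM in uterus 2, a mean of 23.7 ± 1.33 (SD, n = 2), on 993 and 1018 reads. Its level was above that of 86.3% of all genes in the table.

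Notch3 (NM_008716, chromosome 17, 32257838 to 32303797, minus strand) measured 20.6 RPKM in uterus 1 and 13.3 RPKM in uterus 2, a mean of 16.9 ± 5.16 (SD, n = 2), on 626 and 448 reads. Its SD was the widest of the 10 genes. Notch1 (NM_008714, chromosome 2, 26313422 to 26359342, minus strand), the receptor best known from haematopoietic and endothelial cell fate, measured 15.3 and 14.6 RPKM, a mean of 14.9 ± 0.530 (SD, n = 2), on 557 and 588 reads. Notch3 was above Notch1 in uterus 1 and below it in uterus 2, so these 2 receptors had no fixed order.

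Notch4 (NM_010929, chromosome 17, 34701240 to 34725488, plus strand) measured 3.32 and 3.52 RPKM, a mean of 3.42 ± 0.145 (SD, n = 2), on 84 and 99 reads. It was below every other receptor in both animals. Of the summed receptor RPKM, 63.8 in uterus 1 and 54.1 in uterus 2, Notch2 held 40.4% ± 2.45 (SD, n = 2), Notch3 28.3% ± 5.45, Notch1 25.4% ± 2.07 and Notch4 5.85% ± 0.929.

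Among the ligands, the Jagged genes lay above the Delta-like genes. Jag1 (NM_013822, chromosome 2, 136907187 to 136942256, minus strand) measured 12.5 RPKM in uterus 1 and 11.7 RPKM in uterus 2, a mean of 12.1 ± 0.576 (SD, n = 2), on 264 and 274 reads. It held 50.7% ± 2.31 (SD, n = 2) of the summed ligand RPKM. Jag2 (NM_010588, chromosome 12, 114146801 to 114167706, minus strand) measured 8.23 and 5.62 RPKM, a mean of 6.93 ± 1.85 (SD, n = 2), on 128 and 97 reads. The ranges of these 2 ligands did not overlap.

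Dll4 (NM_019454, chromosome 2, 119151520 to 119161402, plus strand) measured 3.48 and 3.61 RPKM, a mean of 3.54 ± 0.0933 (SD, n = 2), on 46 and 53 reads. The table also lists Gm14207 on the opposite strand, which overlaps the Dll4 locus by 414 bases and lay at 0.799 and 1.20 RPKM. Whether the counting used strand is not given in the sources used here, so reads from this overlap cannot be assigned to a strand. Dll1 (NM_007865, chromosome 17, 15504318 to 15512787, minus strand) was the lowest of the 10 genes at 1.29 and 1.44 RPKM, a mean of 1.37 ± 0.103 (SD, n = 2), on only 17 and 21 reads. Summed over each family, Jag1 and Jag2 reached 20.8 and 17.3 RPKM, and Dll1 and Dll4 reached 4.77 and 5.05 RPKM. The Jagged sum was 4.35-fold the Delta-like sum in uterus 1 and 3.44-fold in uterus 2. The receptors' sum was 2.50-fold and 2.42-fold that of the ligands.

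The mean of Heyl lay above 53.4% of all genes and that of Hey1 above 47.1%. Heyl (NM_013905, chromosome 4, 122910799 to 122927113, plus strand), a Hes-related repressor described in vascular smooth muscle, measured 4.95 RPKM in uterus 1 and 3.58 RPKM in uterus 2, a mean of 4.26 ± 0.970 (SD, n = 2), on 86 and 69 reads. Hey1 (NM_010423, chromosome 3, 8663359 to 8667038, minus strand), a repressor of the same family known from endothelium and heart, measured 2.48 and 2.45 RPKM, a mean of 2.47 ± 0.0234 (SD, n = 2), on 21 and 23 reads. Heyl was above Hey1 in both animals, 1.99-fold in uterus 1 and 1.46-fold in uterus 2. In uterus 2 the 95% Poisson intervals overlapped, at 2.78 to 4.53 RPKM for Heyl and 1.55 to 3.68 RPKM for Hey1. In uterus 1 they did not, with Heyl at 3.96 to 6.11 RPKM. The SD of Hey1 was far below what its reads can resolve, since the 95% Poisson interval of its level ran from 1.54 to 3.80 RPKM in uterus 1.

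**Figure D1:**
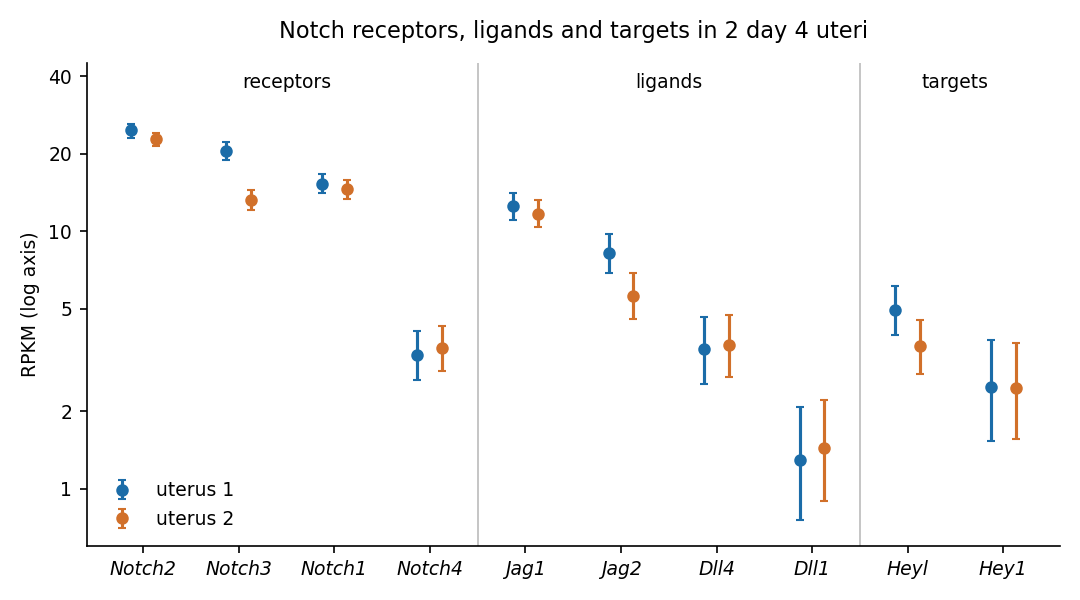
Level of each Notch gene in RPKM on a log axis, by role, with 1 point per uterus and bars for the exact 95% Poisson interval of its reads. Notch2 sits highest at 24.7 and 22.8 RPKM, Dll1 lowest at 1.29 and 1.44 RPKM, and the bars of the 2 uteri stand clear of each other for Notch3 and, narrowly, for Jag2.

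Sorted by mean, the order was Notch2, Notch3, Notch1, Jag1, Jag2, Heyl, Dll4, Notch4, Hey1 and Dll1. Of the 9 neighbouring pairs, 6 had ranges that did not overlap between genes. The other 3 pairs, Notch3 with Notch1, Heyl with Dll4 and Dll4 with Notch4, did overlap. A range here spans the 2 values of a gene and leaves out counting error. Of the 6 pairs, Notch1 with Jag1, Notch4 with Hey1 and Hey1 with Dll1 had overlapping 95% Poisson intervals in uterus 1. Notch2 with Notch3, Jag1 with Jag2 and Jag2 with Heyl did not. In uterus 2, Heyl lay 0.01 below Dll4 on the log2 scale, whereas in uterus 1 it lay 0.51 above. An exact two-sided permutation test of 2 values against 2 cannot give less than p = 0.333, so no step in this order could pass a threshold of 0.05. After Benjamini-Hochberg adjustment over the 9 pairs, the exact permutation p ranged from 0.5 to 1.

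All 10 genes were at 1 RPKM or more in both uteri, against 58.4% of all genes. The 10 were chosen with earlier results of these data known, so the choice itself may have set this contrast. The genes lie on 5 chromosomes: Notch1, Dll4 and Jag1 on chromosome 2, Notch3, Notch4 and Dll1 on chromosome 17, Notch2 and Hey1 on chromosome 3, and the others on chromosomes 4 and 12. Genes on the same chromosome did not always share a level: on chromosome 17, the means were 16.9 RPKM for Notch3 and 1.37 RPKM for Dll1. On chromosome 2, Notch1 and Jag1 were closer, at 14.9 and 12.1 RPKM.

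Between the 2 animals, none of the 10 genes was at least 2-fold apart, against 2.60% of the 13647 genes whose mean reached 1 RPKM. The log2 ratio of uterus 2 over uterus 1 was taken after adding 0.1 RPKM to each value, which makes the differences of low genes look smaller. It ran from -0.63 to 0.14 over the 10 genes with a median of -0.08, and the median of all 13647 genes was 0.0007. Lower values in uterus 2 were found for 7 of the 10 genes, against 49.9% of all genes.

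Notch3 was the gene that differed most. Its log2 ratio was -0.63, with a 95% counting interval from -0.81 to -0.46 (exact binomial, Clopper-Pearson), a change of -35.5% in RPKM from uterus 1 to uterus 2. The two-sided exact binomial test of its reads gave a Benjamini-Hochberg adjusted p of 2.4e-10 over 15158 genes. This test compares 2 libraries by counting error alone and not conditions, and it called 4.90% of all genes. Notch3 was the only one of the 10 genes called. Of 1795 genes with a read sum within 1.5-fold of that of Notch3, 0.446% were as far apart as Notch3 or farther.

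Jag2 had the next largest ratio, -0.54, with an interval from -0.95 to -0.16. Its exact binomial p was 0.00495 before and 0.0816 after adjustment, so it did not pass 0.05, and 3.83% of 3341 genes with similar reads were as far apart. Heyl followed at -0.46 with an interval from -0.95 to 0.01 and an adjusted exact binomial p of 0.299. The other 7 genes had ratios between -0.11 and 0.14, all with intervals that included 0. For Dll1 and Hey1 the reads were too few to show a difference under about 2-fold: the interval ran from -0.84 to 1.17 for Dll1 and from -0.94 to 0.91 for Hey1.

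**Figure D2:**
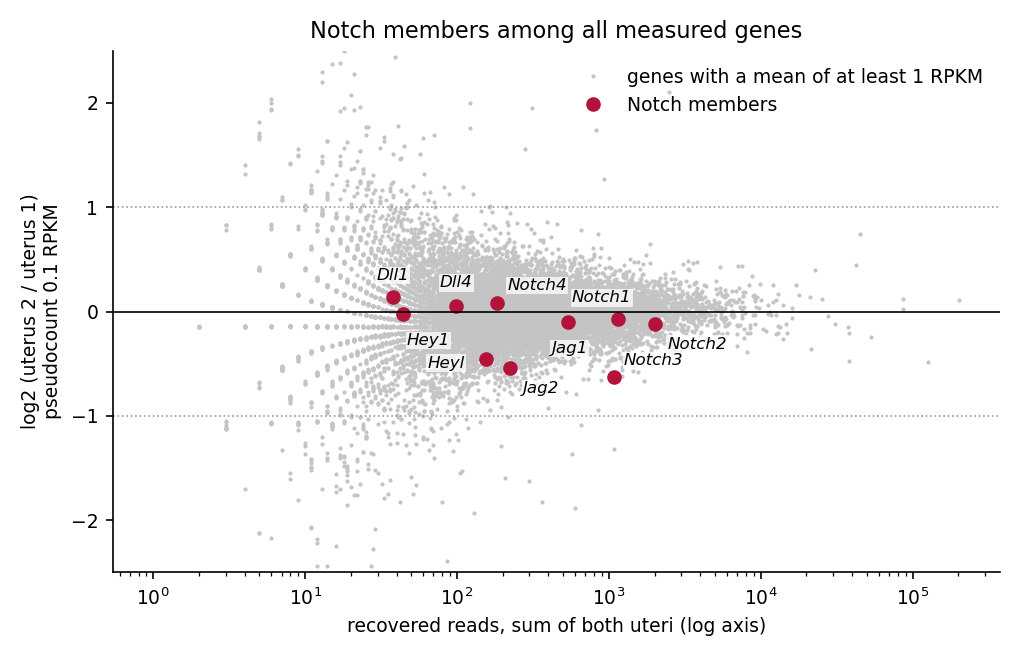
Log2 ratio of uterus 2 over uterus 1 (pseudocount 0.1 RPKM) against recovered reads summed over both uteri on a log axis, with all genes whose mean reached 1 RPKM in grey and the 10 Notch genes in red. Dotted lines mark 2-fold, 38 genes beyond 2.5 are outside the axis, and Notch3 lies at -0.63 on 1074 reads, below most genes with as many reads.

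Several marker lists held genes that differed between the libraries, in either direction, and the markers that passed are named after their values were seen. Of 6 stromal markers, 3 passed the exact binomial test, against 4.90% of all genes. These were Col1a1, a fibrillar collagen, with a log2 ratio of -0.48, and Dcn and Vim, with 0.34 and 0.22. Of the genes with similar reads, 25% were as far apart as Col1a1 (of only 8 genes), 4.94% as Dcn and 10.4% as Vim. Of the smooth muscle markers, Acta2 (-0.14) and Myh11 (0.16) passed in opposite directions, with 47.2% and 47.6% of genes with similar reads as far apart. Of the uterine markers, Pgr, the progesterone receptor, passed at 77.5 and 66.4 RPKM with a log2 ratio of -0.22, and 12.8% of genes with similar reads were as far apart. Of the epithelial markers, Krt18 passed with 0.42, though not with the smallest whole reads that fit its ratio (adjusted p = 0.0606), and 2.72% of genes with similar reads were as far apart. Of 6 mural cell markers, 5 were lower in uterus 2 and 3 passed the exact binomial test, all 3 lower, against 2.64% of all genes called lower, which include genes of as few as 6 reads. These were Pdgfrb at 39.8 and 32.1 RPKM, Mcam at 65.7 and 52.4 RPKM and Cspg4 at 10.4 and 7.94 RPKM. Their log2 ratios were -0.31, -0.33 and -0.38, each smaller in size than that of Notch3. Of the genes with similar reads, 6.94% were as far apart as Pdgfrb, 5.86% as Mcam and 4.57% as Cspg4. With the smallest whole reads, Pdgfrb still passed the exact binomial test (adjusted p = 0.00175), while Mcam (0.245) and Cspg4 (1) did not. The mural list summed to 274 RPKM in uterus 1 and 247 RPKM in uterus 2, and no marker of it was at 0. Rgs5, the highest of the list, was at 128 and 124 RPKM.

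Of 8 endothelial markers, 4 were lower in uterus 2 and 3 passed the exact binomial test, all 3 lower, against the same 2.64%. These were Eng at 38.3 and 25.7 RPKM, Kdr at 22.9 and 16.6 RPKM and Vwf at 13.1 and 9.57 RPKM. Of the genes with similar reads, 0.714% were as far apart as Eng, 2.02% as Kdr and 2.39% as Vwf. Pecam1, the highest, was level at 50.7 and 50.9 RPKM, and the endothelial list summed to 241 and 219 RPKM with no marker at 0. The 6 smooth muscle markers summed to 2025 and 2017 RPKM, with 2 of 6 lower in uterus 2. The part of these shifts in the Notch3 value was not tested. In whole tissue, fewer cells of a type and less RNA per cell cannot be told apart.

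**Figure D3:**
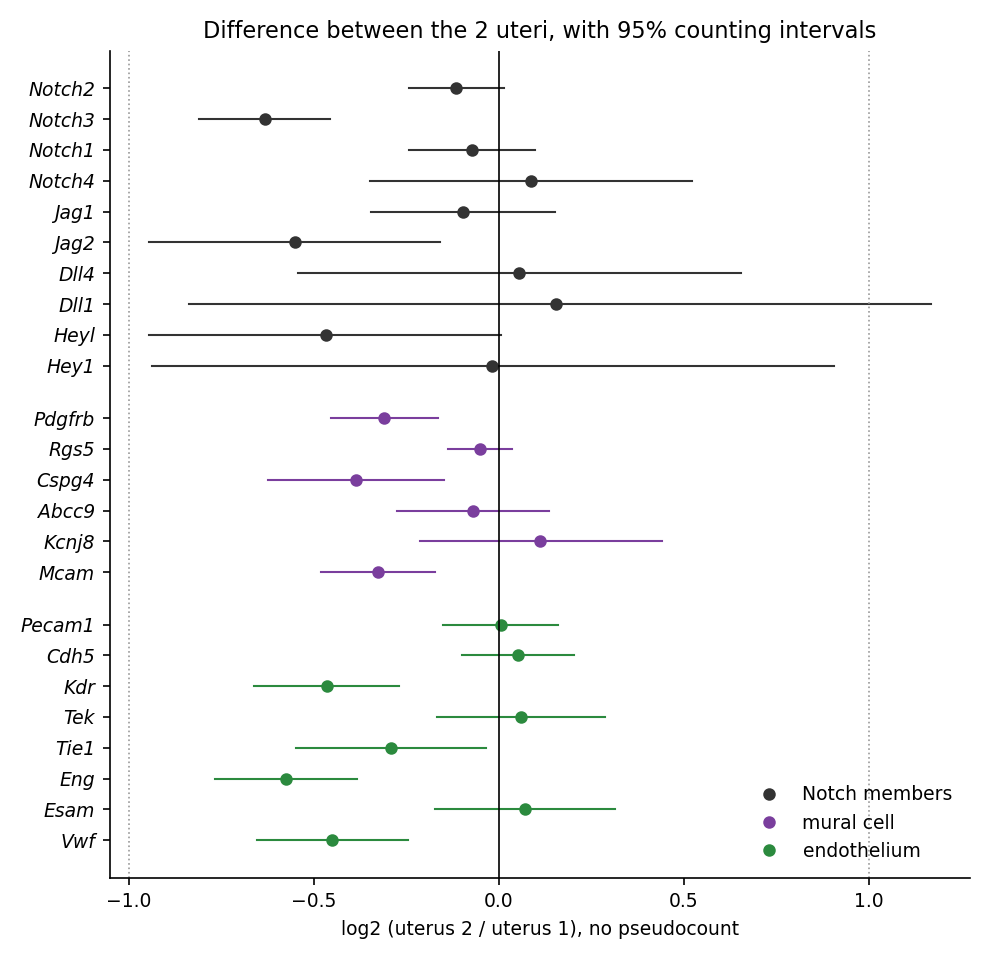
Log2 ratio of uterus 2 over uterus 1 without a pseudocount for the 10 Notch genes, 6 mural cell markers and 8 endothelial markers, with lines for the exact 95% counting interval and dotted lines at 2-fold. The intervals of Notch3, Jag2, Pdgfrb, Cspg4, Mcam, Kdr, Tie1, Eng and Vwf lie wholly below 0.

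Base composition also went with the ratio between the libraries. Of 7311 genes whose mean reached 10 RPKM, 6902 had an annotated coding transcript. Across these, Spearman's rho between GC content and the log2 ratio was -0.201. This is a description across genes of the same 2 libraries, and genes are not independent replicates. The GC content of the annotated transcript was 59.6% for Notch3, 61.3% for Jag2 and 61.2% for Notch4, the 3 highest of the 10, and 48.8% for Jag1, the lowest. The 665 genes within 2 percentage points of Notch3 had a median log2 ratio of -0.05, and that of Notch3 was -0.63. Notch4 had a log2 ratio of 0.08. The part of base composition in these values was not tested.

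The rest of the pathway was read from a list of 61 other Notch genes, all found in the table. Of these, 52 were at 1 RPKM or more in both uteri. None of the 52 was at least 2-fold apart, 21 were lower in uterus 2, and their median log2 ratio was 0.03. The exact binomial test called 3 of 56 tested genes, against 4.90% of all genes, so the share was close to the background. All 3 were lower in uterus 2, where 2.64% of all genes were called lower.

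Of 5 ligand-like genes outside the 4 ligands, 4 were below 1 RPKM in both uteri. Cntn1, a neural adhesion protein reported as a Notch ligand, lay at 7.47 and 7.56 RPKM. Dlk1, a membrane protein without the receptor-binding domain of the Delta family, was called by the exact binomial test at 0.976 and 0.147 RPKM on 18 and 3 reads (adjusted p = 0.0171). With the smallest whole reads this call was lost (adjusted p = 0.460 by the exact binomial test). Dll3 was at 0.241 RPKM in uterus 1 on 2 reads and listed at 0 in uterus 2.

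Every gene for glycosylation, ligand uptake and receptor cleavage on the list was at 1 RPKM or more in both uteri except Aph1c, at 0.654 and 0.544 RPKM. Poglut1, which adds glucose to Notch, was the highest of 5 glycosyltransferases at 25.1 RPKM in each uterus. Mib1, the ubiquitin ligase that drives uptake of bound ligand, lay at 44.4 and 41.5 RPKM and Mib2 at 13.4 and 15.8 RPKM.

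Adam10, the protease that makes the first cut of the bound receptor, lay at 43.5 and 36.8 RPKM and was called lower in uterus 2 by the exact binomial test (log2 ratio -0.24, adjusted p = 0.0305). Of 1219 genes with similar reads, 15.1% were as far apart as Adam10. Adam17 lay at 21.4 and 21.8 RPKM. Of the 7 gamma-secretase genes, whose products make the second cut, Psenen was highest at 35.3 and 40.5 RPKM and none was called.

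In the nucleus, Rbpj lay at 33.6 and 34.2 RPKM, above every Notch receptor. Snw1, a cofactor that also acts in splicing, was the highest of the 8 nuclear complex genes at 43.9 and 53.3 RPKM, and none of the 8 was called. Ctbp1 led the 12 corepressors at 72.4 and 63.3 RPKM. Nedd4, a ubiquitin ligase with many substrates, was the highest of the list at 371 and 356 RPKM.

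Among the further target genes, Hes1 was highest at 12.6 and 14.9 RPKM on 70 and 92 reads, which is 5.07-fold and 6.08-fold the level of Hey1 in the same uteri. Hes6, a relative that opposes Hes1, lay at 9.57 and 13.6 RPKM, Nrarp, a feedback inhibitor of Notch, at 4.05 and 4.56 RPKM, and Hey2 at 3.50 and 3.99 RPKM. All 4 were higher in uterus 2, and none was called by the exact binomial test. Hes2 and Hes5 were listed at 0 in both uteri. Hes3 and Hes7 were listed at 0 in uterus 1 and at 0.385 and 0.487 RPKM in uterus 2, on 3 and 4 reads.

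**Figure D4:**
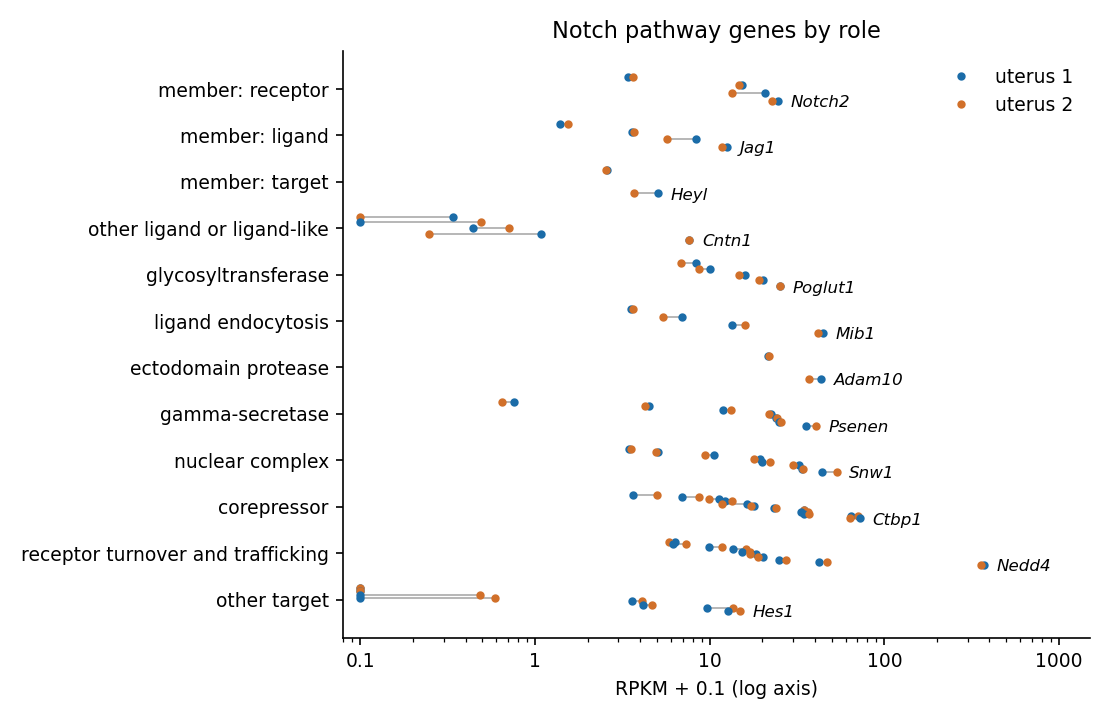
RPKM plus 0.1 on a log axis for the 10 Notch genes and 61 other pathway genes by role, with a line joining the 2 uteri of a gene and the highest gene of each role named. Points at 0.1 are values listed at 0, Hes1 leads the further targets at 12.6 and 14.9 RPKM, and Nedd4 stands alone at 371 and 356 RPKM.

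The labelled tissue was checked against marker lists. All 5 uterine genes were expressed, from Hand2 at a mean of 36.4 RPKM to Hoxa10 at 114 RPKM. The means ran from 25.6 (Cdh1) to 121 RPKM (Cldn3) for 6 epithelial markers, from 137 (Pdgfra) to 1924 RPKM (Col3a1) for 6 stromal markers and from 152 (Cnn1) to 622 RPKM (Acta2) for smooth muscle. Leukocyte markers ran from 1.13 (Cd3e) to 21.2 RPKM (Csf1r). Of 6 ovary and oviduct markers, Foxj1 was listed at 0 in both uteri and Ovgp1 was highest at 7.54 RPKM.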

How the data were processed

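RNA from the whole uterus of 2 mice was sequenced after poly-A selection, per the labels' protocols and the series' design text. The values are RPKM computed by the authors and deposited as 1 column per library, per the labels. The submitters' processing notes name TopHat, edgeR and the build mm9, with no role or version. The counter, the annotation and the strand setting are not given in the sources used here. Deposited starts were read as counted from 0, since 11970 of 20733 genes matched to GENCODE M1 (NCBIM37) had an annotated start 1 base later.

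Whole reads were recovered from RPKM. Single-exon genes gave the scaling total at which low values are whole reads, 3834174 (uterus 1) and 4256101 (uterus 2). At a tolerance of 0.02 reads, 95.8% of 477 such genes were whole in each library, though the lowest of them also set the total. For all 16104 genes above 0 in both, the ratio of reads was a ratio of whole numbers (relative tolerance 1e-10), and the common factor was chosen so that the length came out whole, near an annotated length (within 7.90% for the 10 Notch genes). The sums of recovered reads were 3824497 and 4248020. Intervals cover counting error only and take no account of PCR copies.

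The exact binomial test covered genes with at least 6 reads in sum, with Benjamini-Hochberg adjustment over all of them (Python 3.11.15, SciPy 1.17.1). The recovery and this test were tested on simulated data. Alternatives were other pseudocounts, filters and thresholds, the TPM scale, centring, smallest reads and leaving out each uterus. The members and lists were chosen with earlier results of these data known, and the GC and read-matched descriptions were added after the values were seen. The rule named all members; of the pathway list, the highest gene of each role, every further target, genes at 0 in both uteri and genes 2-fold apart at a mean of at least 1 RPKM; and of each marker list, the highest and lowest gene. Dlk1 (called by the exact test), Dll3, Aph1c, Mib2, Adam17, Rbpj and Gm14207 were added after their values were seen. A pathway gene called by the exact test is not reported here.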

Additional observations from a re-analysis of the deposited data

How the results depend on the processing

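All 10 Notch genes were detected under every alternative run except a threshold of 2 RPKM, which left 9. Detected genes of the pathway list numbered 52 or 53 under every alternative, and leaving out either uterus gave 10 Notch genes and 52 pathway genes. Detection was required in both uteri, so leaving out either could not lower these counts and says nothing about stability. None of the 10 genes was 2-fold apart under any of the 6 alternatives. Of the pathway list, 1 gene was 2-fold apart on the TPM scale and 5 without a filter, against 0; these lie under 1 RPKM, and the filter alone keeps them out. All 40 alternative ratios of the 10 genes stayed inside their counting intervals. Taking the smallest whole reads that fit each ratio, the exact binomial test called 1 of the 10 genes and 2 of the pathway genes, Dlk1 being lost, and the adjusted p of Notch3 was 5.9e-05. Without replicate 1, the log2 gap of Notch3 over Notch1 turned from 0.14 to -0.14 and that of Heyl over Dll4 from 0.25 to -0.0125; without replicate 2 they were 0.43 and 0.51. The other 7 gaps kept their sign. For the 6 pairs whose ranges did not overlap, the sign could not change. With 2 libraries, either one always lies within 1 SD of their mean, so the 20 levels and 20 shares left after dropping a library say nothing about stability. No paired comparison of groups was possible because the design holds a single group. The gaps between genes were taken within each uterus, but the permutation test treated the values as unpaired. Ratios between the uteri have no value without either library. Depth limits Dll1 and Hey1 most, with 38 and 44 reads in sum.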
